A study of Rattus norvegicus with 12 samples.

Results

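The wound tissue collected on day 3 under *A. fulica* d-SMG, the dried adhesive gel made from snail mucus, was compared gene by gene with the other wounds of the same day. All rats were male, made diabetic with streptozotocin, and carried full-thickness wounds in the skin of the back. The wounds received normal saline as the control or were covered with d-SMG, with s-GAG (the sulfated glycosaminoglycan of the mucus, written GAG in the labels), or with Alg, a commercial alginate dressing, and rRNA-depleted, stranded libraries were sequenced on day 3, 7, and 14. There was 1 library for each group and day, 12 libraries in all, of which 4 belong to day 3. The labels name the tissue only as skin, and nothing in them says how deep the tissue was cut or how many animals stand behind a library.

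A gene was placed above the range when its level in the d-SMG library was higher than in each of the other 3 libraries, and below the range when it was lower than in each of them. Levels are CPM, the reads of a gene scaled to a fixed library total, after TMM normalization, which scales the libraries so that most genes do not shift. Of the 25620 genes counted, 15033 had at least 40 reads over the 4 libraries and were examined. The d-SMG library lay outside the range for 9368 of them, namely above it for 4421 genes (29.4%) and below it for 4947 genes (32.9%). It lay at least 2-fold above the range for 663 genes (4.41%) and at least 2-fold below it for 1241 genes (8.26%). These levels chose the genes, and thus the counts are a description and not a test. In the same count the s-GAG library was the highest of the 4 for 4441 genes and the lowest for 4017, so that a large number of outermost genes was not particular to d-SMG.

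Skin lies over a thin sheet of striated muscle in the rat, and deeper trunk muscle lies below it. Muscle fibres hold very large amounts of a small set of transcripts for thick filaments (myosins), thin filaments (actin, troponins), the giant scaffold proteins titin and nebulin, and the calcium and energy supply of contraction. The epidermis above is built of keratinocytes, which produce keratins 5 and 14 in the basal layer and keratins 1 and 10, filaggrin and loricrin as they move outward and cornify. Sebaceous glands open into the hair follicles and are known for enzymes that make very long fatty acids and wax esters. The share of each tissue in a piece of wound therefore sets much of what a bulk library contains. In such a library, fewer cells of a type and less RNA per cell cannot be told apart.

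Gene lists for muscle, the layers of the epidermis, glands, and other cell types were used to describe the make-up of the d-SMG library. The muscle lists were high, while the keratinocyte and sebaceous lists were low, and the suprabasal, wound-edge, and sebaceous lists were close to absent. The filament list summed to 268910 CPM against 94098, 51365, and 49095 CPM in the control, s-GAG, and Alg libraries, respectively. The list of suprabasal and cornifying keratinocytes summed to 21.8 CPM against 1053, 1974, and 1083 CPM. The sebaceous list summed to 31.1 CPM against 984, 1729, and 879 CPM. Thus, relative to the nearest of the other libraries, the d-SMG library held 2.86-fold more of the filament transcripts, 48.3-fold less of the suprabasal transcripts, and 28.3-fold less of the sebaceous transcripts. Collagens and dermal markers, described further on, were present as the label skin implies, but the markers of cornifying epidermis had few reads in this library and the basal keratins *Krt14* and *Krt5* had 263 and 98 reads, far fewer than elsewhere.

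**Figure D1:**
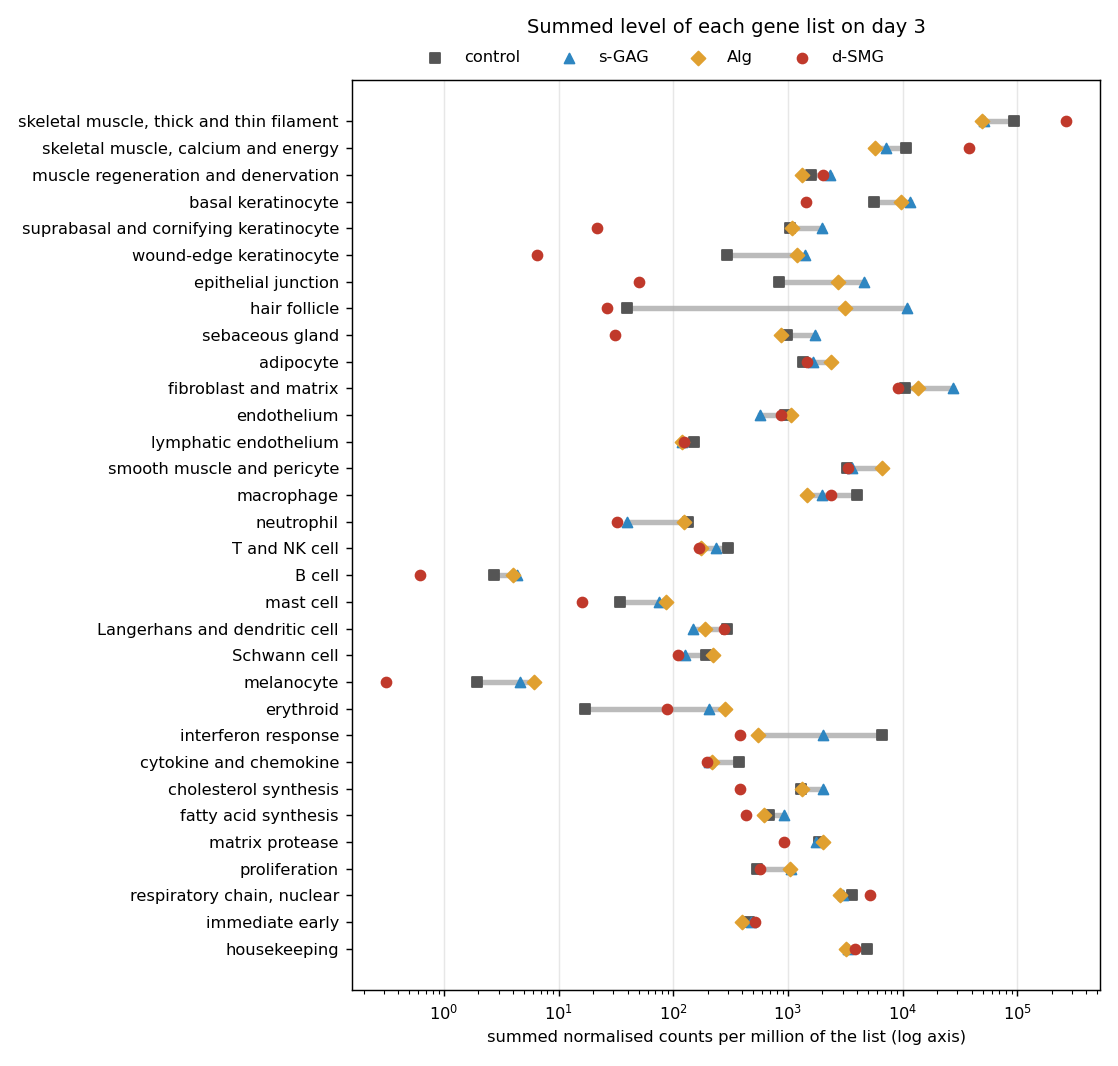
Summed level of each gene list in the 4 day 3 libraries, in normalised CPM on a log axis, with 1 point for each library and a grey bar for the range of the control, s-GAG, and Alg libraries. The d-SMG points lie to the right of the bar for the 2 mature muscle lists and far to the left of it for the suprabasal, wound-edge, junction, and sebaceous lists, while they lie inside it for endothelium and macrophages.

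The 4 libraries held 16791836 (d-SMG), 23921685 (control), 15900086 (s-GAG), and 18613866 (Alg) reads on genes, and a read was seen for 18308 to 20518 genes, with the fewest in d-SMG. The 10 most abundant genes took 25.52% of the reads in the d-SMG library against 11.01% to 16.59% in the others. The TMM factor of the d-SMG library was 0.7672 against 1.033 to 1.128, and with library size alone the median of all genes shifts by -0.511 on the log2 scale. The split of the genes outside the range changes with it, from 4421 above and 4947 below to 1674 above and 9361 below. Levels are given on the TMM scale from here on. On that scale the median log2 ratio over all genes, d-SMG to the mean of the other 3, was -0.08.

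No gene passed an FDR of 0.05 in the quasi-likelihood test of edgeR, in which the d-SMG library was set against the other 3 (0 of 15033 genes, 0%). The smallest adjusted p was 0.0798, and 987 genes (6.57%) were higher and 1270 (8.45%) lower at an unadjusted p under 0.05. The test takes its spread from 3 libraries of 3 different treatments and assumes that the lone d-SMG library varies like them. DESeq2, run on the same counts, called 396 genes higher (2.69%) and 723 lower (4.90%) of the 14741 to which it gave an adjusted p. The exact test of edgeR with an assumed biological coefficient of variation of 0.3 called 2065 genes. Because the tools differ this much, the lists are described by their place relative to the other 3 libraries, and no list or gene is said to be changed. An exact permutation of the label over 4 libraries cannot give a one-sided p below 0.25.

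The largest distances were downward. Above the range the median gene was 1.28-fold beyond the nearest library, 138 genes were at least 4-fold beyond it, and 2 at least 16-fold. Below the range the median gene was 1.34-fold beyond, 620 genes were at least 4-fold, 195 at least 16-fold, and 58 at least 64-fold below, and 248 of the genes below the range had 0 reads in d-SMG. At the 2-fold border, *Mmab* was 2.003-fold above and *Cttnbp2* 2.003-fold below, while *Rap1gap2* and *Shc4* stopped at 1.999-fold and 1.998-fold below. Most of these far genes were not in any list, since 48 of the 663 genes far above and 140 of the 1241 genes far below were list members.

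The list of thick and thin filament genes stood above the range as a whole. Of its 30 genes, 23 were above (76.7% against 29.4% of all genes), 3 inside, and 4 below, and 21 were at least 2-fold above (against 4.41% of all genes). The median log2 ratio was 2.03. The reads of the list made up 20.63% of the d-SMG library (95% exact binomial interval 20.61 to 20.65, for counting error only) against 9.716% of the control, 5.75% of the s-GAG, and 5.537% of the Alg library. Hence about 1 read in 5 on genes came from 30 filament genes.

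Myosin heavy chains are the motor proteins of the thick filament, and each fibre type uses its own. *Myh4*, the heavy chain of the fastest fibres (type IIb, chromosome 10 in the file), was at 99916 CPM against 41091, 11010, and 18158 CPM in the control, s-GAG, and Alg libraries. *Myh1*, the heavy chain of IIx fibres, was at 24853 CPM against 5609.6, 8631, and 2704 CPM. *Myh2*, that of IIa fibres, was at 1404 CPM against 172, 2225, and 427 CPM, and thus below s-GAG. *Myh7*, the heavy chain of slow fibres, was at 20.6 CPM against 134, 389, and 16.3 CPM, and only the Alg library was lower. Thus the fast chains *Myh4* and *Myh1* lay 2.43-fold and 2.88-fold above the highest other library, while the slow and the oxidative chain lay inside the range.

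The light chains and troponins showed the same division by fibre type. The fast light chain genes *Mylpf* and *Myl1* were 3.73-fold and 2.2-fold above the range, whereas the slow and ventricular forms *Myl2* and *Myl3* were below it, with 7 reads against 21, 314, and 118 reads and 6 reads against 82, 190, and 10 reads, respectively. The fast troponin genes *Tnnc2*, *Tnni2*, and *Tnnt3*, which give the thin filament its calcium sensitivity, were 2.47-fold, 2.88-fold, and 2.41-fold above. Of the slow troponins, *Tnnt1* was at 43.1 CPM against 227, 218, and 47.5 CPM and lowest in d-SMG, *Tnnc1* at 32.2 CPM against 83.6, 59.6, and 23.8 CPM and inside the range, and *Tnni1* at 104 CPM against 82.6, 54.8, and 36 CPM and 1.26-fold above. The 7 filament genes that were not above the range were thus *Myl2*, *Myl3*, *Myh7*, *Nebl*, *Tnnt1*, *Tnnc1*, and *Myh2*, and apart from the IIa chain *Myh2* they are genes of slow fibres or of the heart.

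*Acta1*, skeletal muscle actin (chromosome 19), was at 12184 CPM against 3265, 3409, and 2365 CPM, and therefore 3.57-fold above the s-GAG library, while the other 3 libraries lay close together. *Ttn*, which encodes the molecular spring titin, was at 9626 CPM against 943, 1178, and 1752 CPM. *Neb*, for the thin filament ruler nebulin, was at 12741 CPM against 2079, 1834, and 3753 CPM. The widest gap in the list was that of the Z-disc gene *Myoz3* (5.73-fold, 95% counting interval 5.22 to 6.31). *Ttn* followed at 5.49-fold, *Mybpc2*, the fast myosin binding protein C, at 5.09-fold, the Z-disc gene *Myoz1* at 4.64-fold, and *Myom2*, an M-band gene, at 4.47-fold. Per length of transcript, the highest members in d-SMG were *Tnnc2* with an FPKM of 25674, *Myh4* with 11839, *Tnni2* with 11251, *Tnnt3* with 11026, and *Acta1* with 6043. Apart from *Acta1*, which all skeletal fibres use, these are genes of fast fibres.

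**Figure D2:**
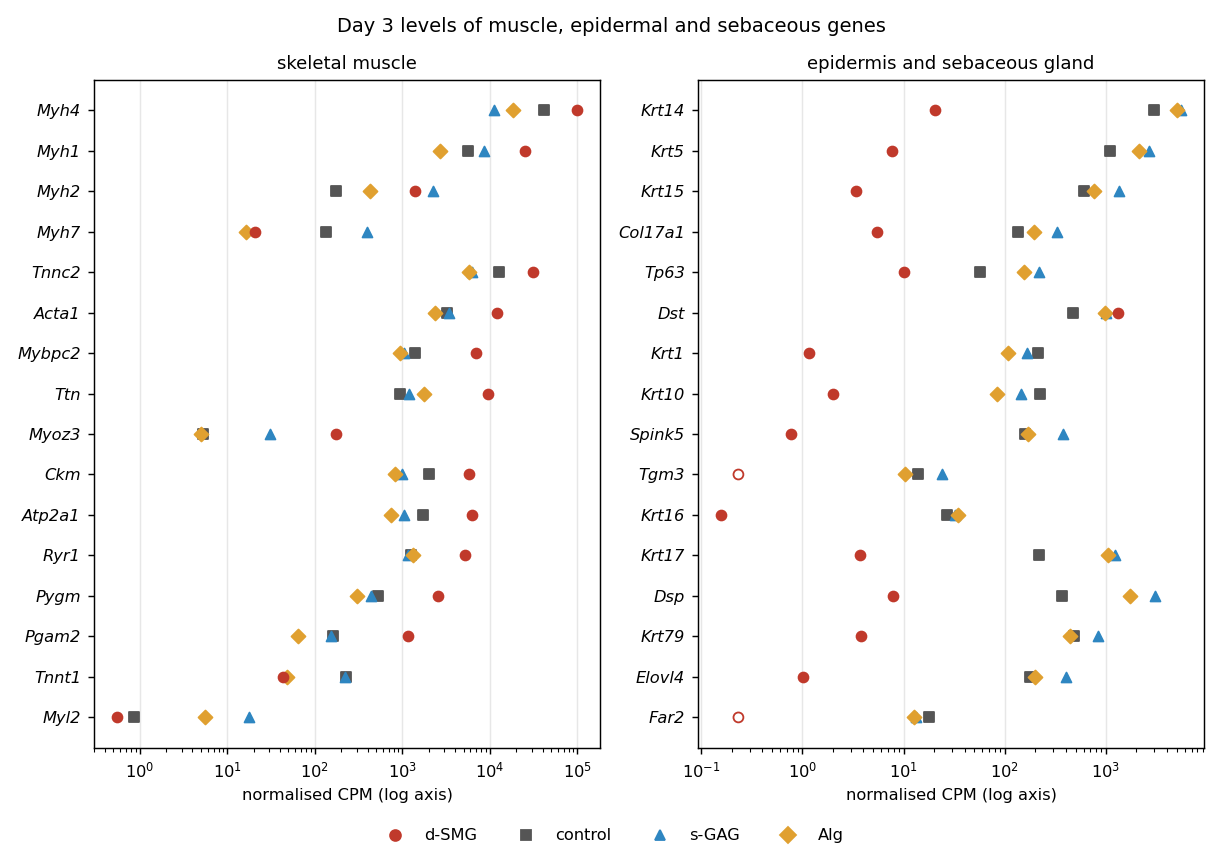
Normalised CPM on day 3 of selected muscle genes (left) and of epidermal and sebaceous genes (right), 1 point for each library on log axes. An open point stands for 0 reads and is drawn at the level of 3 reads. For muscle the d-SMG point lies rightmost except in *Myh2*, *Myh7*, *Tnnt1*, and *Myl2*, and for the epidermis and sebaceous gland it lies leftmost except in *Dst*.

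All 22 genes of the second muscle list, for calcium handling and energy supply, lay above the range (100% against 29.4% of all genes), and 20 of them at least 2-fold (against 4.41%). The median log2 ratio was 2.41. *Pgam2*, the muscle phosphoglycerate mutase of glycolysis, was at 1145 CPM against 159.6, 152, and 63.5 CPM, 7.17-fold above the control. *Pygm*, the muscle glycogen phosphorylase, was at 2578 CPM against 533, 442, and 301 CPM. *Ckm*, the muscle creatine kinase that buffers ATP, was at 5739 CPM against 2012, 983, and 827 CPM. In each of these genes the control was the next library down.

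The channels and pumps of the sarcoplasmic reticulum behaved alike. *Ryr1*, the calcium release channel, was at 5136 CPM against 1269.5, 1167, and 1309 CPM. *Atp2a1*, the calcium pump of fast fibres, was at 6172 CPM against 1702, 1036, and 735 CPM. *Aqp4*, the water channel of fast fibres, was 5.1-fold above and *Mstn*, the growth inhibitor myostatin, 4.89-fold above (95% counting interval 3.43 to 7.09, on 145 reads). The 2 genes of the list less than 2-fold above were *Sln*, which restrains the calcium pump (1.56-fold), and *Art1* (1.43-fold). Tests of the muscle genes use the same 4 libraries that placed them above the range, with 1 d-SMG library. Counts of genes from such tests are thus no separate support for these lists.

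Promoters were read from the RefSeq set of the rat (GRCr8) and searched for well-known motifs. The search covered both muscle lists and the interferon, basal, suprabasal, wound-edge, junction, and cholesterol lists. The muscle lists are given here and the others further on. Of the 492 list symbols, 348 had exactly 1 promoter, and 13 more had several. In the 250 bases before the start site, the E-box CAGCTG, the core site of myogenic bHLH factors, occurred in 9 of the 18 calcium and energy genes with a promoter (50%) and in 4 of the 21 filament genes (19%), against 12% of all 33469 promoters, on either strand. The letters TATAAA occurred in 27.8% and 33.3% of these lists against 12.9% of all promoters, and the M-CAT letters CATTCC in 16.7% and 28.6% against 12.1%. The windows of 2 members far above the range are shown with the E-box in capitals. *Pgam2* is read from chr14:84897875-84897994 on the minus strand and *Pygm* from chr1:213119685-213119804 on the plus strand, and each window ends 1 base before the start site.
Pgam2: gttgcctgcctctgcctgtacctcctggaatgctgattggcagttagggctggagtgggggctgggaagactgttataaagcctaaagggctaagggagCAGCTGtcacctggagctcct
Pygm: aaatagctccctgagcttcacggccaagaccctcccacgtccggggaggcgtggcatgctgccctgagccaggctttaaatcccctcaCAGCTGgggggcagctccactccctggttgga

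A match is a description of these letters and not of a bound factor.

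Genes of muscle regeneration and denervation were less far from the other libraries. Of the 17 genes, 10 were above the range (58.8% against 29.4% of all genes), 7 inside, and none of the 17 below, and 1 was at least 2-fold above, namely *Musk*, the receptor kinase of the neuromuscular junction (2.18-fold). *Ncam1* and *Chrnd*, which spread over fibres that lose their nerve, were 1.96-fold and 1.59-fold above. *Pax7*, the marker of satellite cells, was at 2.72 CPM against 1.34, 0.787, and 1.43 CPM, and *Myf6*, a late myogenic factor, was at 288 CPM against 158, 24.4, and 149 CPM. *Myog*, the factor of differentiating myoblasts, was at 273 CPM against 230.2, 15.5, and 153 CPM, with s-GAG far below the rest. The embryonic and the neonatal myosins *Myh3* and *Myh8*, which newly formed fibres use, were at 547 CPM against 712, 1311, and 416 CPM and 150.4 CPM against 97.4, 869.9, and 70.3 CPM, respectively, and highest in s-GAG. Summed over the list, d-SMG was thus inside the range with 2026 CPM against 1589, 2353, and 1337 CPM.

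The nuclear genes of the respiratory chain also stood high, though by little. Of 19 genes, 17 were above the range (89.5% against 29.4% of all genes) and 2 inside, none of the 19 was 2-fold above, and the median log2 ratio was 0.77. *Cox5a*, a subunit of cytochrome c oxidase, was at 35.5 CPM against 19.3, 12.9, and 14.1 CPM, and *Atp5f1a*, a subunit of the ATP synthase, at 868 CPM against 482, 451, and 433 CPM. *Ndufb8*, of the first complex, and *Cycs*, for cytochrome c, were 1.88-fold and 1.73-fold above. Scaled by library size alone, this median was 0.28. How far the muscle share of the library carries these values was not tested.

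Among the 10 genes farthest above the range over the whole table, with at least 100 reads in the highest library, were *Magea9*, *Ankrd2*, *Perm1*, *Xirp2*, *Rrad*, *Capn3*, *Syne4*, *Pcare*, and *Gadl1*. *Ankrd2*, a stretch-responsive ankyrin protein of muscle, was at 255 CPM against 17.8, 9.72, and 22.1 CPM, 11.6-fold above Alg (95% counting interval 10.5 to 12.8). *Xirp2*, an actin-binding protein of the myotendinous junction and the Z-disc, was at 8056 CPM against 528, 726, and 761 CPM. *Rrad*, a small G protein that restrains calcium channels, was at 1427 CPM against 64.5, 20.8, and 145 CPM, the widest spread among the other libraries of these 3 genes. *Capn3*, the muscle calpain that binds titin, was 8.62-fold above, and *Perm1*, a muscle regulator of mitochondrial genes, 10.8-fold. *Magea9*, a MAGE family gene on chromosome X, was 20.1-fold above (interval 11.3 to 38.6), from 136 reads against 13, 9, and 4. *Syne4*, *Pcare*, and *Gadl1* were 8.53-fold, 8.12-fold, and 7.98-fold above on 178 to 335 reads.

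The basal layer of the epidermis was the opposite of muscle. Of 13 basal keratinocyte genes, 12 were below the range (92.3% against 32.9% of all genes), 11 of them at least 2-fold (against 8.26%), and the median log2 ratio was -4.93. *Krt14*, which pairs with keratin 5 to form the filaments of basal cells, was at 20.4 CPM against 2983, 5564, and 5083 CPM in the control, s-GAG, and Alg libraries (chromosome 10). *Krt5* was at 7.61 CPM against 1096, 2633, and 2116 CPM (chromosome 7). *Krt15*, also a marker of the hair follicle bulge, was at 3.42 CPM against 599, 1333, and 758 CPM. The other 3 libraries lay within a 3-fold span for each of these keratins, and d-SMG lay 146-fold, 144-fold, and 175-fold below the lowest of them, in each case the control.

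The anchors of the basal layer to the basement membrane were also below. *Col17a1*, the collagen of hemidesmosomes, was at 5.51 CPM against 136, 325, and 195 CPM. The laminin genes *Lamb3* and *Lama3* were 24.5-fold and 3.68-fold below the range, and *Itgb4* and *Itga6*, an integrin pair that binds laminin, 3.98-fold and 1.8-fold. *Tp63*, the master factor of stratified epithelia, was at 10.2 CPM against 57.3, 217, and 153 CPM. The exception was *Dst*, for dystonin, which has a hemidesmosomal form and also neuronal and muscle forms, at 1323 CPM against 473, 995, and 969.5 CPM and 1.33-fold above the range. The basal sum of the d-SMG library, 1427 CPM against 5629, 11513, and 9675 CPM, came for the most part from *Dst*, with 17040 of its 18380 reads.

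All 21 genes of the suprabasal and cornifying list that could be examined were below the range (100% against 32.9%), 18 of them at least 2-fold (against 8.26%), with a median log2 ratio of -5.995. *Krt1* and *Krt10*, the keratin pair of the spinous layer, had 15 reads against 5254, 2952, and 2238 reads and 26 reads against 5491, 2575, and 1749 reads. *Spink5*, an inhibitor of the proteases that shed the outer layer, was at 0.776 CPM against 159, 376, and 171 CPM, 205-fold below (interval 112 to 429). *Tgm3*, a transglutaminase of the cornified envelope, had no reads in d-SMG and 340, 426, and 216 in the others, and was therefore at least 44.2-fold lower when 3 reads are taken as the floor. *Ivl* (involucrin), *Loricrin*, and *Flg* (filaggrin), the proteins of the cornified cell, had 1, 1, and 3 reads in d-SMG, and their ratios to the nearest library of 212 (interval 37.9 to 8404), 23.9 (4.05 to 969), and 12.9 (4.23 to 63.8) are accordingly loose. *Asprv1*, a protease of the granular layer, was 59-fold below on 5 reads. *Krt2* and *Tgm1* were the nearest to the range at 1.04-fold and 1.77-fold below. In all, 281 of the 16791836 reads of the library fell on this list, 0.001673% (interval 0.001483 to 0.001881), against 0.1088% to 0.2209% of the other libraries.

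The keratins of the wound edge, which keratinocytes switch on when they migrate over a wound, were likewise almost without reads. All 7 genes examined were at least 2-fold below the range (against 8.26% of all genes), with a median log2 ratio of -7.11, which was -5.92 without s-GAG and -3.81 with FPKM and a pseudocount of 1. *Krt16* had 2 reads against 667, 572, and 728 reads and *Krt6a* 2 reads against 654, 1301, and 1782. *Krt17* was at 3.73 CPM against 216, 1239, and 1044 CPM, and *Stfa2*, a stefin, had 2 reads against 173, 136, and 211 reads. *Krt16* had the smallest unadjusted p of all genes in the quasi-likelihood test of edgeR (2.885e-05, adjusted p = 0.0798).

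Epithelial junctions gave the same picture without keratins. All 16 genes were below the range (against 32.9% of all genes), 15 of them at least 2-fold (against 8.26%). *Dsp*, the desmosomal plaque protein desmoplakin, was at 7.76 CPM against 366, 3027, and 1724 CPM, and *Perp*, a desmosomal membrane protein, at 2.25 CPM against 172, 512, and 323 CPM. *Epcam*, the epithelial adhesion molecule, was at 1.79 CPM against 74.7, 251, and 156 CPM, and *Cdh1* (E-cadherin) at 1.47 CPM against 29.8, 101, and 64.5 CPM. *Esrp1*, an epithelial splicing factor, had 1 read against 447, 1168, and 884 reads, and *Dsc3*, a desmosomal cadherin, was 54.1-fold below on 4 reads. *Jup*, for plakoglobin, which other tissues and heart muscle also use, was the closest at 21.5 CPM against 24.9, 41.9, and 31.7 CPM. In the d-SMG library, all 16 junction genes together had 642 reads.

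**Figure D3:**
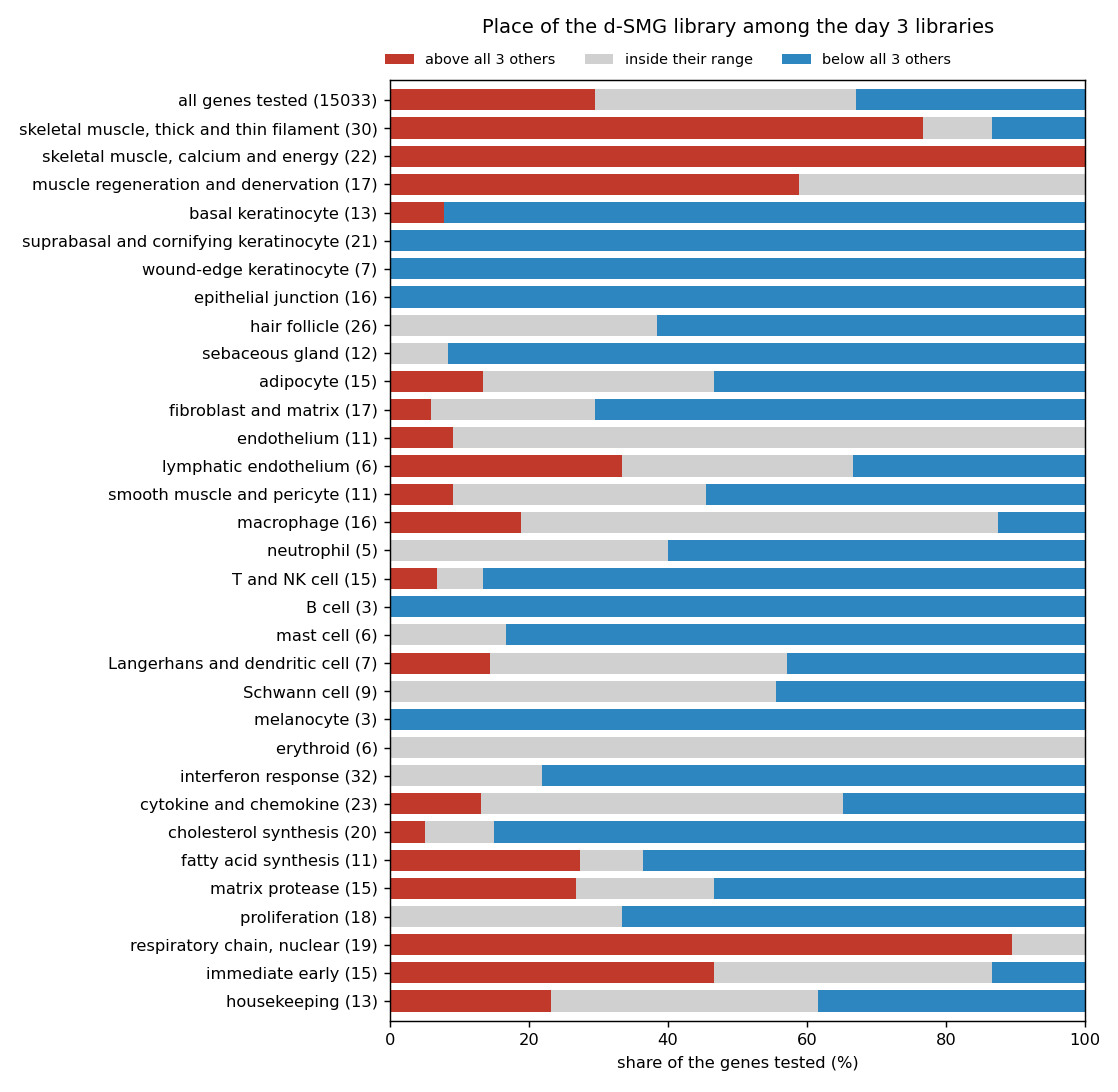
Share of the genes of each list that lay above (red), inside (grey), or below (blue) the range of the control, s-GAG, and Alg libraries for d-SMG at day 3, with the number of genes examined in parentheses. All genes are split 29.4% above and 32.9% below, whereas the suprabasal, wound-edge, and junction lists, and the short B cell and melanocyte lists, are wholly below, the calcium and energy list is wholly above, and the interferon and cholesterol lists lie mostly below.

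Sebaceous gland genes were at the level of the epidermal ones. Of 12 genes, 11 were at least 2-fold below the range (91.7% against 8.26%) and 1, *Mc5r*, was inside, and the median log2 ratio was -6.16. *Elovl4* and *Elovl3*, which lengthen very long fatty acids, were at 1.01 CPM against 179, 399, and 197 CPM and 0.388 CPM against 42.8, 69.2, and 37.4 CPM, respectively. *Awat2*, a wax ester synthase, and *Far2*, which makes the fatty alcohols for it, had no reads in d-SMG against 639, 748, and 387 and 440, 236, and 266 in the others, and were at least 79.2-fold and at least 54.4-fold lower. *Acsbg1*, an acyl-CoA synthetase, was 112-fold below on 7 reads. *Krt79*, a keratin of the gland duct and upper follicle, was at 3.8 CPM against 486, 837, and 436 CPM. *Mc5r*, the melanocortin receptor of sebocytes, which muscle also expresses, was at 5.28 CPM against 5.99, 4.55, and 1.91 CPM. The 3 other libraries differed by less than 2-fold in the list sum, and d-SMG stood apart from all of them.

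Hair follicle genes were low in d-SMG and also in the control. Of 26 genes, 16 were below the range (61.5% against 32.9% of all genes) and 10 inside, and 7 were at least 2-fold below (against 8.26%). Over the list, the median log2 ratio was -6.57, and -4.73 without s-GAG. The list summed to 26.5 CPM against 39.9, 10979, and 3123 CPM. *Tchh*, the trichohyalin of the inner root sheath, was at 19.3 CPM against 18.9, 7914, and 1889 CPM, and *Krt71*, a root sheath keratin, at 1.79 CPM against 9.92, 1033, and 427 CPM. *Krt85* and *Krt35*, keratins of the growing shaft, had 3 reads against 1, 3684, and 1902 reads and 3 reads against 2, 2932, and 2416 reads. *Gsdma* was 7.3-fold below the range on 7 reads, and *Lhx2* and *Msx2*, factors of the follicle, had 9 reads against 50, 179, and 171 reads and 3 reads against 15, 262, and 259 reads. Both the d-SMG and the control library were therefore nearly without shaft and sheath keratins, while the epidermal and sebaceous lists of the control were present.

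With libraries under 3 reads set to 3 reads for the order, and without provisional symbols, the 10 genes farthest below the range over the whole table were *Aqp3*, *Dmkn*, *Spink5*, *Elovl4*, *Krt15*, *Krt14*, *Krt5*, *Sdr16c6*, *Serpinb5*, and *Anxa8*. *Aqp3*, the aquaglyceroporin of keratinocytes, had 1 read against 1399, 1961, and 1715 reads, a ratio of 729.6 with a counting interval of 131 to 28838. *Serpinb5* (maspin), an epithelial serpin, had 1 read against 761, 1487, and 960 reads, and *Dmkn* (dermokine), a secreted protein of the upper epidermis, 3 reads against 1231, 1539, and 1500 reads. *Anxa8*, an annexin, was at 2.17 CPM against 286, 413, and 286 CPM. *Sdr16c6*, a short chain dehydrogenase, had 1 read against 972, 1257, and 688 reads. Most of these 10 are known from the epidermis or the sebaceous gland.

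Melanocytes, Langerhans cells, and mast cells, which live in or near the epidermis and upper dermis, were low too. *Cd207* (langerin), which defines Langerhans cells, had 0 reads against 123, 195, and 77 reads, at least 15.8-fold lower, while *Clec10a* and *Itgax*, shared with dermal dendritic cells and macrophages, were at 227 CPM against 235, 84.2, and 159.6 CPM and 33.5 CPM against 32.1, 30.2, and 11.7 CPM. *Mlana*, a melanocyte gene, had 0 reads against 37, 30, and 29 reads, at least 5.93-fold lower. The mast cell proteases *Cma1* and *Cpa3* had 8 reads against 105, 244, and 312 reads and 3 reads against 69, 206, and 126 reads. At least 2-fold below were 5 of 6 mast cell genes (against 8.26% of all genes). *Cpa3* lay 12-fold below the control with an interval of 3.94 to 59.6, and *Ms4a2* and *Kit*, the receptors of mast cells for IgE and stem cell factor, were 3.07-fold and 2.49-fold below. The keratinocyte sums were low in the same library, and their part in these counts was not tested.

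Fat was mixed. Of 15 adipocyte genes, 8 were below the range (53.3% against 32.9% of all genes), 5 inside, and 2 above (13.3% against 29.4%). At least 2-fold below were 7 of them (against 8.26% of all genes). *Adipoq*, the adipocyte hormone adiponectin, was at 2.48 CPM against 26.4, 50.1, and 76.4 CPM, and *Plin1*, the coat protein of the fat droplet, at 4.04 CPM against 12.7, 29.7, and 52.4 CPM. *Gpd1* and *Plin4*, which skeletal muscle also expresses, were at 169.5 CPM against 14.7, 32.5, and 19 CPM and 101 CPM against 54, 42.4, and 33 CPM and were the 2 above the range. *Fabp4*, shared with endothelium and macrophages, was at 913 CPM against 863, 1049, and 1653 CPM. *Thrsp*, *Pck1*, and *Cidec*, which serve lipid synthesis, glycerol supply, and droplet growth, were 4.37-fold, 4.37-fold, and 4.33-fold below. The list thus spread to both sides of the range.

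The dermis was present but low. Of 17 fibroblast and matrix genes, 12 were below the range (70.6% against 32.9% of all genes), 4 inside, and 1 above. At least 2-fold below were 2 of the 17 (against 8.26% of all genes). The median log2 ratio was -0.84, with -0.47 without s-GAG and -1.36 scaled by library size alone. *Col1a1* and *Col3a1*, the fibrillar collagens of dermis and scar, were at 1529 CPM against 1575, 6730.1, and 2836 CPM and 3034 CPM against 3696, 8850.2, and 3929 CPM, respectively, so that d-SMG was close to the control and s-GAG stood highest. *Dcn* (decorin), a proteoglycan that binds collagen, was at 185 CPM against 901, 523, and 668 CPM. *Fbln1*, *Lum* (lumican), and *Loxl1* were 3.71-fold, 1.79-fold, and 1.58-fold below. *Fn1* (fibronectin) was the gene above the range, at 901 CPM against 567, 726, and 616 CPM. The collagen genes of the d-SMG library were therefore within reach of the control, unlike the keratins.

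Proteases that remodel matrix were lower than in every other library for 8 of 15 genes (against 32.9% of all genes), while 4 were above and 3 inside. At least 2-fold outside the range were 7 genes below (against 8.26% of all genes) and 2 above (against 4.41%). *Mmp3* (stromelysin-1) was at 4.97 CPM against 179, 54, and 129 CPM, and *Mmp2* and *Mmp14*, the gelatinase and its activator, were at 84.1 CPM against 412, 467, and 507 CPM and 53 CPM against 218, 249, and 223 CPM. *Mmp9* and *Mmp13*, made by wound-edge keratinocytes among other cells, were at 0.311 CPM against 10.2, 7.3, and 5.15 CPM and 0.466 CPM against 16.1, 6.01, and 7.05 CPM, respectively. *Mmp11* was 8.78-fold below on 10 reads and *Mmp19* 1.05-fold above. *Mmp10* was also higher in d-SMG on day 3, by 1.86 on the log2 scale in a fit over all 12 libraries. *Adamts4*, an aggrecanase, was at 15.2 CPM against 3.32, 3.6, and 7.24 CPM and *Adamts1* at 145 CPM against 55.5, 75.6, and 117 CPM, both above. *Mmp2* and *Mmp14* lay 4.9-fold and 4.1-fold below libraries that differed among themselves by less than 1.5-fold. The parts of epidermis and dermis in these values were not tested.

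The endothelium of blood vessels did not stand apart. Of 11 endothelial genes, 10 were inside the range (against 37.7% of all genes) and 1, *Esam*, was above by 1.12-fold. The median log2 ratio was 0.06 (-0.44 scaled by library size alone). *Pecam1*, the endothelial adhesion molecule, was at 181 CPM against 211, 116, and 193 CPM, and *Cdh5* (VE-cadherin) at 111 CPM against 114, 66.7, and 115 CPM. Of 6 lymphatic genes 2 were above, 2 inside, and 2 below (29.4% of all genes were above and 32.9% below), with *Flt4* 1.08-fold above and *Mmrn1* 12.7-fold below. At least 2-fold outside were 1 lymphatic gene above and 2 below, against 4.41% and 8.26% of all genes. *Lyve1*, which tissue macrophages also carry, was at 59.9 CPM against 28.5, 12, and 19.1 CPM and *Ccl21*, the chemokine of lymphatic vessels, at 6.37 CPM against 33.9, 44.6, and 33.1 CPM, on opposite sides of the range. Of the 11 smooth muscle and pericyte genes 6 were below (54.5% against 32.9% of all genes), 4 inside, and 1 above, with none of the 11 as much as 2-fold outside. *Acta2*, smooth muscle actin, was at 181 CPM against 228, 109, and 256 CPM. The outermost were *Kcnmb1* (1.52-fold), *Cnn1* (1.44-fold), *Pdgfrb* (1.18-fold), and *Notch3* (1.13-fold) below and *Lmod1* (1.39-fold) above. The high muscle lists of d-SMG thus had no counterpart in smooth muscle.

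Macrophage genes lay mostly inside the range as well, with 11 of 16 inside (against 37.7% of all genes), 3 above, and 2 below. *Cd68*, a lysosomal marker, was at 31.7 CPM against 67.2, 50.5, and 28 CPM, and *C1qa*, a complement chain of tissue macrophages, at 182 CPM against 517, 288, and 205 CPM. *Mrc1* (CD206) and *Cd163*, which are used as markers of the M2 state, were at 195 CPM against 184, 141, and 193 CPM and 390.1 CPM against 313, 215, and 338 CPM, respectively. *Mrc1* was 1.01-fold and *Cd163* 1.15-fold above the highest other library, smaller gaps than the differences among the other 3 libraries. *Msr1*, a scavenger receptor, was 1.28-fold above and *Adgre1* (F4/80) 1.24-fold below. The median log2 ratio of the list, -0.25, turns to 0.26 when the control is left out.

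Of 15 T and NK cell genes, 13 were below the range (against 32.9% of all genes), 1 inside, and 1 above, mostly on few reads. The median log2 ratio was -2.12, but -1.10 without s-GAG and 0.48 over the members with at least 400 reads. *Cd3g* and *Cd3e*, chains of the T cell receptor complex, had 2 reads against 20, 60, and 31 reads and 5 reads against 18, 60, and 20 reads. *Cd8a* was the gene above, at 20 CPM against 8.99, 4.27, and 7.29 CPM, while *Cd3d*, the partner chain found in every T cell, had 6 reads against 25, 84, and 44 reads. *Cd27*, *Cd2*, *Gzmb*, and *Lck* were 1.89-fold to 1.29-fold below on 4 to 40 reads. All 3 B cell genes examined were below on at most 4 reads. Of 9 Schwann cell genes, 4 were below (44.4% against 32.9% of all genes) and 5 inside. *Sox10*, the lineage factor, was 3.78-fold below, *Egr2* 2.45-fold, *S100b* 1.64-fold, and *Mbp*, for myelin basic protein, 1.43-fold. All 6 erythroid genes were inside, so that blood did not set d-SMG apart.

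*S100a8* and *S100a9*, calprotectin genes of neutrophils that stressed keratinocytes also use, were at 0.699 CPM against 15, 8.15, and 24.3 CPM and 3.57 CPM against 39.5, 17.1, and 67.9 CPM. *Il1r2*, the decoy receptor for interleukin-1, was 4.19-fold below. Of the 5 neutrophil genes examined, these 3 were below the range (60% against 32.9% of all genes) and 2 were inside. The median log2 ratio of the list was -2.24, and -0.89 with no low-count filter. Of the neutrophil markers *Ngp*, *Ltf*, *Fpr1*, *Mpo*, *Camp*, *Retnlg*, and *Cxcr1*, none of the 7 had a read in d-SMG or more than 8 reads in any of the other libraries, so that these markers could not be compared at this depth. Among 23 cytokine and chemokine genes, 8 were below (34.8% against 32.9% of all genes), 12 inside, and 3 above. The share below was thus near that of all genes. The median log2 ratio of -1.02 was -0.20 without the control. *Il1b* was at 4.5 CPM against 10.9, 8.03, and 6.34 CPM, *Tnf* had 5 reads against 53, 31, and 17 reads, and *Osm* and *Il6* were at 3.42 CPM against 1.05, 1.69, and 1.48 CPM and 2.17 CPM against 0.688, 0.506, and 1.24 CPM. *Cxcl13*, *Nos2*, and *Cxcl1* were 2.16-fold, 1.71-fold, and 1.7-fold below, and *Cxcl14* 1.19-fold above.

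Interferons switch on a set of antiviral genes through factors that bind the element known as ISRE. In d-SMG 25 of 32 genes of this response were below the range (78.1% against 32.9% of all genes) and 7 inside, and 12 were at least 2-fold below (against 8.26% of all genes). The list summed to 379.5 CPM against 6683, 2035, and 544 CPM, so that the 4 libraries were spread over an order of magnitude and Alg was close to d-SMG. *Mx2* and *Mx1*, antiviral GTPases, were at 8.93 CPM against 1272, 317, and 37 CPM and 4.35 CPM against 580.2, 155, and 16 CPM, respectively. *Isg15*, a ubiquitin-like modifier, was at 3.96 CPM against 371, 89.5, and 10.1 CPM, and *Irf7*, which amplifies the response, at 2.64 CPM against 196, 83.4, and 7.19 CPM. Relative to Alg, the lowest other library, *Mx2* and *Isg15* lay 4.14-fold and 2.54-fold below. *Cxcl10*, *Oasl2*, and *Bst2* were inside the range, with the Alg value below that of d-SMG, as for *Bst2* at 41.1 CPM against 169, 59.7, and 35 CPM.

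The median log2 ratio of the interferon list was -3.31 and became -1.99 without the control library, which held the highest sum. In all, 1 gene of the list had an unadjusted p under 0.05 in the quasi-likelihood test of edgeR (smallest p 0.0499), and DESeq2 called 10 of 32 lower. Over all genes, the share lower was 8.45% in the former and 4.90% in the latter. In d-SMG the low interferon sum stood beside low epidermal and high muscle sums. Among the other 3 libraries, the control had the highest interferon sum, the highest filament sum, and the lowest basal keratinocyte sum. The part of tissue make-up in the interferon values was not tested.

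The core letters GAAANNGAA of the ISRE were found, on either strand of the 250 bases before the start, in 16 of the 21 interferon genes with a promoter (76.2%) against 8.12% of all 33469 promoters. The windows of 2 genes are shown with the motif in capitals (here it lies on the opposite strand, and the capitals are its reverse complement), since these are among the members farthest below the range. *Rsad2* (viperin, 2 reads against 1712, 403, and 24 reads) is read from chr6:48788207-48788326 on the minus strand of GRCr8, from base -206 to -87 relative to the start, and *Ifit3* (7.61 CPM against 742, 158, and 25.6 CPM) from chr1:241527206-241527325 on the plus strand, up to 1 base before the start.
Rsad2: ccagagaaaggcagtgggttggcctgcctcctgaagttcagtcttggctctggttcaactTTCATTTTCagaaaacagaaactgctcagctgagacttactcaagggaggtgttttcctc
Ifit3: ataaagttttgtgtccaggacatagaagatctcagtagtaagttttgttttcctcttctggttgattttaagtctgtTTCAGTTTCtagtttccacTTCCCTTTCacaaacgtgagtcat

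The AP-1 letters TGANTCA, searched in the same way, stood in 1 of 7 basal, 2 of 20 suprabasal, 3 of 5 wound-edge, and 2 of 10 junction promoters. Of all promoters, 6.34% held them. The sterol element letters ATCACCCCA stood in 0 of 14 cholesterol promoters against 0.212% of all.

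Cholesterol is made from acetyl-CoA through mevalonate and squalene, with heavy use in sebaceous glands and in the epidermal barrier. Of 20 genes of the pathway, 17 were below the range (85% against 32.9% of all genes), 13 of them at least 2-fold (against 8.26%), 2 inside, and 1 above, and the median log2 ratio was -1.57. *Hmgcs1*, an early enzyme on the way to mevalonate, was at 27.8 CPM against 189.6, 338, and 203 CPM, and *Idi1*, the isomerase that follows mevalonate, at 11.3 CPM against 57, 121, and 55.3 CPM. *Sqle*, the epoxidase of squalene, was at 1.24 CPM against 13.6, 18.5, and 10.6 CPM, and *Cyp51*, the demethylase of lanosterol, at 37.6 CPM against 146, 204, and 143 CPM. In each of these genes the other 3 libraries lay within a 3-fold span and d-SMG lay below all of them.

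**Figure D4:**
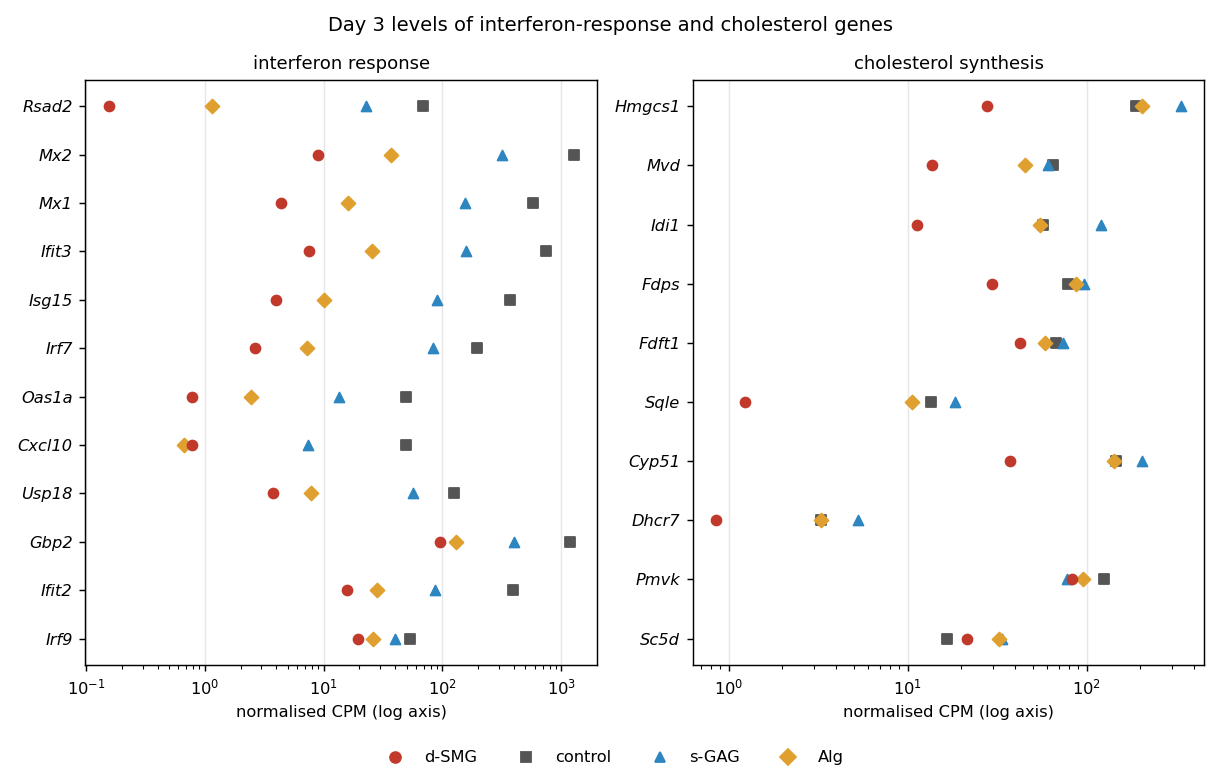
Normalised CPM on day 3 of 12 interferon-response genes (left) and 10 genes of cholesterol synthesis (right), 1 point for each library on log axes. For interferon genes the d-SMG and Alg points are at the low end and the control at the high end, whereas for most cholesterol genes the other 3 libraries lie together and d-SMG lies apart, except in *Pmvk* and *Sc5d*, where it lies among them.

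Of 11 genes of fatty acid synthesis, 7 were below (against 32.9% of all genes), 1 inside, and 3 above. *Fasn*, the fatty acid synthase, was at 7.37 CPM against 49.3, 100.2, and 51.2 CPM, and *Acly*, which supplies acetyl-CoA, at 28.3 CPM against 107, 182, and 125 CPM. *Acacb*, the carboxylase isoform typical of muscle, and *Srebf1*, a regulator of the pathway, were at 118 CPM against 67, 80.2, and 69.3 CPM and 34.2 CPM against 21.1, 16.9, and 11.1 CPM, both above. *Elovl6* and *Elovl5*, elongases, were 3.89-fold and 3.08-fold below, and *Me1* 1.24-fold above. The sebaceous and keratinocyte sums were low in the same library, and their part in the lipid genes was not tested.

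Cell cycle genes were below the range for 12 of 18 (against 32.9% of all genes) and inside for 6, with a median log2 ratio of -0.84 and 2 genes at least 2-fold below (against 8.26%). The list summed to 568 CPM against 533, 1072.5, and 1035.6 CPM in the control, s-GAG, and Alg libraries, and the sum was thus inside the range. *Aurka* was at 5.59 CPM against 15.7, 21.6, and 13.1 CPM, and *Ccnb1* at 6.83 CPM against 14.1, 17.9, and 18.6 CPM, whereas *Mki67* was at 198 CPM against 129, 339.5, and 315 CPM and inside. *Cdc20* and *Ccnb2* were 1.72-fold and 1.58-fold below. Of 15 immediate early genes, 7 were above (46.7% against 29.4% of all genes), 6 inside, and 2 below. The farthest were *Nr4a1* at 27.3 CPM against 9.15, 5.96, and 5.24 CPM and *Egr3* at 0.932 CPM against 4.29, 16.6, and 11.4 CPM. *Dusp1*, *Zfp36*, and *Fos* were 1.59-fold, 1.46-fold, and 1.24-fold above and *Klf4* 1.67-fold below, and the median of the list lay above 0 with TMM and at -0.22 when scaled by library size alone. Housekeeping genes were divided, with 3 of 13 above, 5 inside, and 5 below (23.1% above and 38.5% below, against 29.4% and 32.9% of all genes). *Actb* was at 709.8 CPM against 911, 721, and 661 CPM and inside, whereas *Gapdh* and *Pgk1*, glycolytic enzymes that muscle holds in large amounts, were at 789 CPM against 426, 137, and 213 CPM and 388 CPM against 197, 118, and 140.1 CPM. Among the genes below the range, *Gusb*, *Ywhaz*, *Ppia*, and *Tbp* lay close to it, with *Gusb* and *Ywhaz* at 1.42-fold and 1.41-fold.

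The later days showed that high muscle was not a constant of the d-SMG wounds. The groups of each day are other wounds, again with 1 library each. On day 7 the d-SMG library lay below the other 3 libraries of that day for 29 of 30 filament genes and for 22 of 22 calcium and energy genes, against 21.6% of all genes below and 23.6% above on that day. *Acta1* was at 167.4 CPM on day 7 against 2583, 1754, and 3982 CPM in the control, s-GAG, and Alg libraries, and *Ckm* at 58.48 against 1072, 555.8, and 2844 CPM. On day 14 the d-SMG library was below for 12 of 30 and 13 of 22 genes, against 12.1% of all genes below and 12.5% above. The median log2 ratios of the lists were -3.71 and -3.44 on day 7 and -2.88 and -2.99 on day 14, opposite in sign to those of day 3. Other groups also varied between days, with levels scaled within each day. The filament sum on day 3, 7, and 14 was 49095, 180740, and 14249 CPM in Alg and 51365, 57621, and 149830 CPM in s-GAG. In the control it varied less, at 94098, 75886, and 76312 CPM.

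Epidermal and gland genes were nearer to the other libraries on the later days. *Krt14* was at 4994 CPM on day 7 against 2650, 8541, and 9088 CPM, and *Krt5* at 2287 against 953.8, 4050, and 3569 CPM, both inside. On day 14, *Krt14* was at 10420 CPM against 2368, 24490, and 7532 CPM, while *Krt1* was at 33.36 against 1622, 82.18, and 1369 CPM and again lowest in d-SMG. The basal list had a median log2 ratio of -0.52 on day 7 and 0.59 on day 14, and the sebaceous list -1.06 (8 of 11 genes below the range) and 0.40. The very low levels of basal and sebaceous transcripts were thus seen in the d-SMG library of day 3 and not in those of day 7 and 14. The suprabasal list was low again on day 14, with a median of -2.12. Of its 25 genes, 18 were below the range (72% against 12.1% of all genes on that day). At least 2-fold below were 10 of them, against 233 of all 15124 genes.

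**Figure D5:**
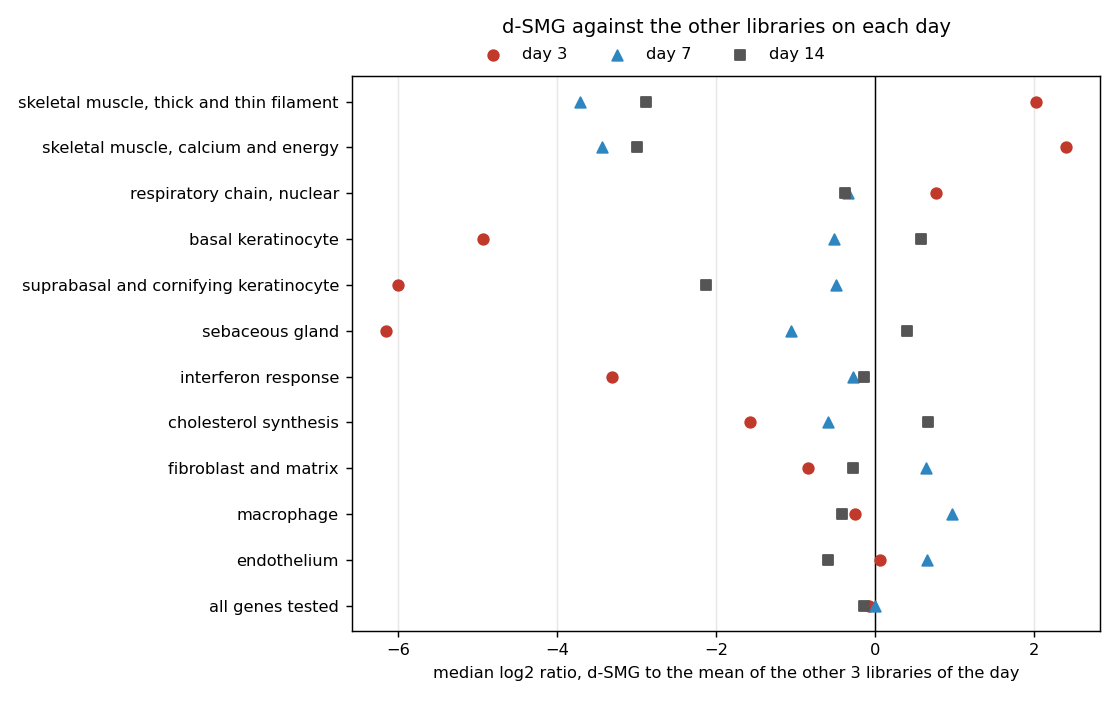
Median log2 ratio of selected lists and of all genes examined, d-SMG to the mean of the control, s-GAG, and Alg libraries of the same day, on day 3, 7, and 14. The filament list and the calcium and energy list are above 0 on day 3 and below -2.8 on both later days. The keratinocyte and sebaceous lists lie lower on day 3 than on either later day.

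Of the 663 genes at least 2-fold above the range on day 3, 621 were examined on day 7, and of these 73.1% lay below and 4.03% above the range of that day. On day 14, 36.2% of 580 lay below and 4.14% above. Of the 1241 genes far below on day 3, 13.6% were above and 19% below on day 7, and 23.8% above and 11.9% below on day 14. Over all genes, 23.6% were above and 21.6% below on day 7, and 12.5% above and 12.1% below on day 14. For the genes far below on day 3, the shares below on the later days were thus near those of all genes. When the departure of d-SMG on day 3 was tested against the mean of its departures on day 7 and 14 in all 12 libraries (quasi-likelihood test of edgeR), 0 of 15260 genes passed an FDR of 0.05, with a smallest adjusted p of 0.112 and 1608 genes at an unadjusted p under 0.05, while DESeq2 called 681. For *Acta1* the difference was 5.50 on the log2 scale, with an adjusted p of 0.159 in the same test of edgeR.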

How the data were processed

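RNA sequencing of diabetic rat wounds was taken from the tables the authors deposited, with 1 library for each of 4 groups on each of 3 days. The authors deposited the counts of reads on 25620 genes as whole numbers, without normalization, and FPKM for 25524 genes, in which the authors divided by transcript length and sequencing depth. The submitters' processing notes name bcl2fastq, FastQC, TopHat2, and edgeR, while versions, the counting tool, and the genome build are not given in the sources used here, and genes are placed by chromosome alone. Each table holds 1 further column that matches no described sample and was not used. Nothing states how many animals a library holds, and any spread between libraries includes that between treatments.

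The d-SMG library of day 3 was set against the control, s-GAG, and Alg libraries of day 3. Counts were scaled by TMM in edgeR 4.0.16 (R 4.3.3), and genes with at least 40 reads over the 4 libraries were kept (120 over 12 libraries). A gene lay above or below the range when d-SMG was outside all 3 other values, and its fold beyond the range was taken to the nearest of them, with an exact 95% binomial interval on the reads. A library at 0 was set to 3 reads for a lower bound. Intervals and floors cover counting error only. The log2 ratio compares d-SMG with the mean of the others. The quasi-likelihood test of edgeR with Benjamini-Hochberg adjustment at an FDR of 0.05 was the main test, and the scripts were tested on simulated data. Alternatives were RLE factors, library size alone, no filter or 400 reads, each library left out, DESeq2 1.42.0, an exact test with a set BCV of 0.3, and FPKM with a pseudocount of 1 or 0.1. Promoters came from RefSeq (GRCr8), and figures from matplotlib 3.10.9 in Python 3.11.15.

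The genes named are at most 4 per list and direction, by fold beyond the range, and over all genes the 10 farthest on each side without provisional symbols, each with at least 100 reads in the highest library and fewer than 3 reads ranked as 3, and those needed to complete a family. Other genes named were chosen after their values were seen. The members and lists were chosen with earlier results of these data known. Some genes that this rule names are not reported here.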

Additional observations from a re-analysis of the deposited data

Results flagged for a closer look

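The place of d-SMG among the libraries of one day turned with the day for 7 lists, whose summed level in d-SMG lay outside all 3 other libraries on opposite sides on day 3 and on a later day, a difference that was not tested at the level of the list. The median log2 ratio of the filament list was 2.034 on day 3 but -3.714 on day 7 and -2.88 on day 14, and that of the calcium and energy list was 2.413, -3.435, and -2.986. The respiratory chain list stood at 0.7737 on day 3 and -0.3366 on day 7. In the opposite direction, the sebaceous list stood at -6.156 on day 3 and 0.4021 on day 14, cholesterol synthesis at -1.567 and 0.6741, and fatty acid synthesis at -1.175 and 0.3818. B cell genes stood at -2.261 on day 3 and 0.8191 on day 7, on few reads. Gene by gene, the contrast between day 3 and the later days called 0 of 15260 genes (edgeR quasi-likelihood test, FDR 0.05), 1608 at an unadjusted p under 0.05, and 681 with DESeq2.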

How the results depend on the processing

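Each group had 1 library a day, so that the d-SMG library cannot be told apart from its wound or its animal, and depth left genes under 40 reads unexamined. Of 286 list medians recomputed, 225 were close to the first value, 51 moved, and 10 turned in sign. All 180 values of named genes kept their sign. The cause of the moves was not tested. No paired analysis was possible because each group has 1 library on a day and the labels give no shared replicate numbers.

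Scaled by library size alone, 1674 genes were above and 9361 below the range, 327 and 2153 at least 2-fold, and the medians were -5.447 (basal), -6.667 (sebaceous), -2.078 (cholesterol), 0.2798 (respiratory chain), -0.4395 (endothelium), and -0.2227 (immediate early). With no filter, 1091 genes were 2-fold above. With at least 400 reads, 409 were 2-fold above and 604 below, and the medians were -6.99 (sebaceous), 0.4832 (T and NK), and 0.4042 (Langerhans and dendritic). With FPKM and a pseudocount of 1, 1712 genes were above and 9159 below, 171 and 675 at least 2-fold, and the medians were 1.807 (calcium and energy), -3.346 (basal), -2.834 (suprabasal), -3.947 (sebaceous), 0.2859 (respiratory chain), -0.4044 (endothelium), and -0.1932 (immediate early). With a pseudocount of 0.1, 1712 genes were again above and 9159 below, 293 at least 2-fold above, and the medians were -5.672 (sebaceous), -2.036 (cholesterol), 0.2969 (respiratory chain), -0.4148 (endothelium), and -0.1993 (immediate early).

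The quasi-likelihood test of edgeR called 0 genes, 417 with no filter, 1119 with DESeq2, 2065 with the exact test at a BCV of 0.3, and 2257 at an unadjusted p. With a library left out it called 0 (s-GAG), 52 (Alg), and 602 (control). The contrast of day 3 with the later days called 7 genes by library size, 11 with no filter, 681 with DESeq2, 1608 unadjusted, and 0 with any one of the control, s-GAG, or Alg libraries left out. With a library left out, 4791 to 6022 genes were above, 5316 to 6096 below, 720 to 1199 (without the control) at least 2-fold above, and 1254 to 1795 below. The medians ranged from 0.6719 to 1.006 (respiratory chain), -0.08452 to 0.2431 (endothelium, lowest without s-GAG), and -0.4597 to 0.2603 (macrophage, highest without the control).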

Other observations

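The second most abundant gene of the d-SMG library was *H19*, an imprinted lncRNA that is abundant in skeletal muscle and in the fetus. It took 1000477 reads, 5.958% of the library against 3.002%, 2.113%, and 2.301% in the control, s-GAG, and Alg libraries, and stood at 77660 CPM against 29070, 18880, and 20400 CPM. All lncRNAs together stood at 80960 CPM against 31750, 21320, and 23200 CPM, and without *H19* at 3290 CPM against 2677, 2439, and 2797 CPM, so that most of the lncRNA total was this gene. The muscle lists were high in the same library, and their part in *H19* was not tested.

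Of 13 mitochondrially encoded mRNAs, 12 were above the range and 1 inside (29.4% of all genes were above), and they summed to 22160 CPM against 13630, 13730, and 13480 CPM. Of 81 ribosomal protein genes, 41 were below (32.9% of all genes were below), 34 inside, and 6 above, and they summed to 34520 CPM against 49690, 36980, and 45010 CPM. Of 16 circadian clock genes, 9 were above (against 29.4% of all genes), 4 inside, and 3 below. Of 10 genes of the *Serpinb* cluster, which holds many epithelial protease inhibitors, 9 were below, against 32.9% of all genes. Of 23 *Hox* genes, which keep the position along the body, 13 were below (again against 32.9%), 8 inside, and 2 above, with sums of 83.53 CPM against 92.43, 96.41, and 107.4 CPM.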
